A study of Mus musculus with 12 samples.

Results

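CC chemokines are small secreted proteins that draw leukocytes along a gradient through G protein-coupled receptors. The group described here has 9 members, namely the macrophage inflammatory protein genes Ccl3, Ccl4, Ccl6 and Ccl9, the RANTES gene Ccl5, the lymphoid-type genes Ccl17, Ccl20 and Ccl22, and Ccl24 (eotaxin-2). They were taken by gene symbol from a table of transcripts, and the values of the transcripts of a gene were added up, which gave all 9 of them among 22243 genes. Messenger RNA was sequenced from bone marrow-derived macrophages (BM-Mɸs) of C57Bl/6 mice, grown in M-CSF from CMG14-12 conditioned medium and M1-activated with 100 U/mL interferon-γ for 16 h and then 100 ng/mL LPS for 6 h. There were 6 ErbB4myeKO cultures (LysMCre with a floxed ErbB4 gene) and 6 ErbB4FF cultures (floxed ErbB4 without Cre), 1 of each from 6 litters, and the comparison asked what the loss of the receptor ErbB4 in myeloid cells did to these genes. All 12 cultures carried the floxed alleles and were activated, so induction from rest was not analysed here. LysMCre expresses the recombinase from the Lyz2 locus of myeloid cells, and as the ErbB4FF mice lacked it, an effect of Cre and an effect of the deletion cannot be told apart. The labels give neither sex nor age.

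CCL3, CCL4 and CCL5 attract T cells, NK cells and monocytes, and CCL3 and CCL5 are ligands of CCR1. They are strongly induced in macrophages by LPS through NF-κB, and Ccl5 also by interferon. CCL6 and CCL9 are rodent CCR1 ligands made by unstimulated macrophages and myeloid precursors. CCL17 and CCL22 share the receptor CCR4, are typical of dendritic cells and, like the CCR3 ligand CCL24, of macrophages exposed to IL-4. CCL20 is the ligand of CCR6 and is known mainly from epithelium and inflamed mucosa.

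Values are in TPM (transcript abundance relative to the whole library), which scale the transcripts of a library to a common total and correct for their length, so levels of different genes can be set side by side. Changes are log2 ratios of TPM + 0.5 between the ErbB4myeKO culture and its ErbB4FF littermate, and were tested by limma, with litter as a block, in the 8780 genes whose mean reached 1 TPM. A gene passed where its Benjamini-Hochberg adjusted p was under 0.05. An exact permutation test, two-sided and with genotypes swapped within litters, was added for single genes, and its 64 swaps cannot give a p below 0.0312. The cultures carried macrophage mRNA, with all 8 macrophage marker genes at a mean of 1 TPM or more. Of 10 lymphocyte and NK cell markers 9 had a mean under 0.1 TPM. Some immunoglobulin genes, which are not on that list, were higher, with means over the 12 libraries of 4.58 TPM for Ighm, 3.306 TPM for Jchain and 9.898 TPM for Igkv10-96. Lymphocyte RNA was therefore not shown to be absent. Markers of other cells were present too, as 7 of 8 stromal markers and 4 of 10 neutrophil markers reached a mean of 1 TPM, with sums of 28.4 to 299 TPM and 39.7 to 371 TPM over the 12 libraries. Within litters the macrophage sum, most of which was Lyz2, was lower in ErbB4myeKO in litters 1 to 5 as Lyz2 itself was, and of the other markers Fcgr1 was lower (log2 ratio -0.86 ± 0.74) and Mertk higher (0.14 ± 0.19) in 6 of 6 litters. The stromal and the neutrophil sum were each higher in 3 litters and lower in 3. All 7 tested stromal markers had a log2 fold change above 0, and of the 4 tested neutrophil markers Camp was higher in 6 of 6 litters (0.45 ± 0.41). The part of these cells in the results below was not tested. The label could not be checked from Erbb4, which was 0.583 ± 0.242 TPM (SD, n = 6) in ErbB4myeKO and 0.450 ± 0.132 TPM (SD, n = 6) in ErbB4FF cultures over its whole transcript. Lyz2, into which Cre is inserted, was lower in ErbB4myeKO in litters 1 to 5, with log2 ratios from -1.20 to -0.81. In litter 6 it was higher, at 7997 TPM in ErbB4myeKO and 2964 TPM in ErbB4FF (log2 ratio 1.43). Whether the labels of litter 6 are right was not tested. Genotype names below are therefore those on the labels. The libraries of litter 5 and the ErbB4myeKO library of litter 3 were the least like the others, with mean correlations of 0.882 to 0.886 across genes. Some results of the members are also given without these litters, while for single genes of the other lists they are not.

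The genotypes were not separated by any of these genes at the threshold. In limma 0 of the 8 members that could be tested passed, and so did 0 of all 8780 genes (0.0%; smallest adjusted p 0.603). At an unadjusted p under 0.05 there were 2, Ccl22 and Ccl20, both higher in ErbB4myeKO BM-Mɸs, where 8.21% of all genes fell under that value with 3.83% higher and 4.38% lower in ErbB4myeKO. Ccl20 reached the 1 TPM filter only through the ErbB4myeKO cultures, where it is the higher, so the filter has a part in its count and direction. None of the 8 went the same way in all 6 litters, against 4.82% of all genes. In at least 5 litters 3 did so, Ccl22 upward and Ccl5 and Ccl24 downward, against 28.2% of all genes. The median log2 fold change of the 8 was 0.06, and that of all genes tested -0.00068. For each of the 9 genes the values of the genotypes overlapped, as they did for all but 4 of the genes tested (0.0456%).

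**Figure D1:**
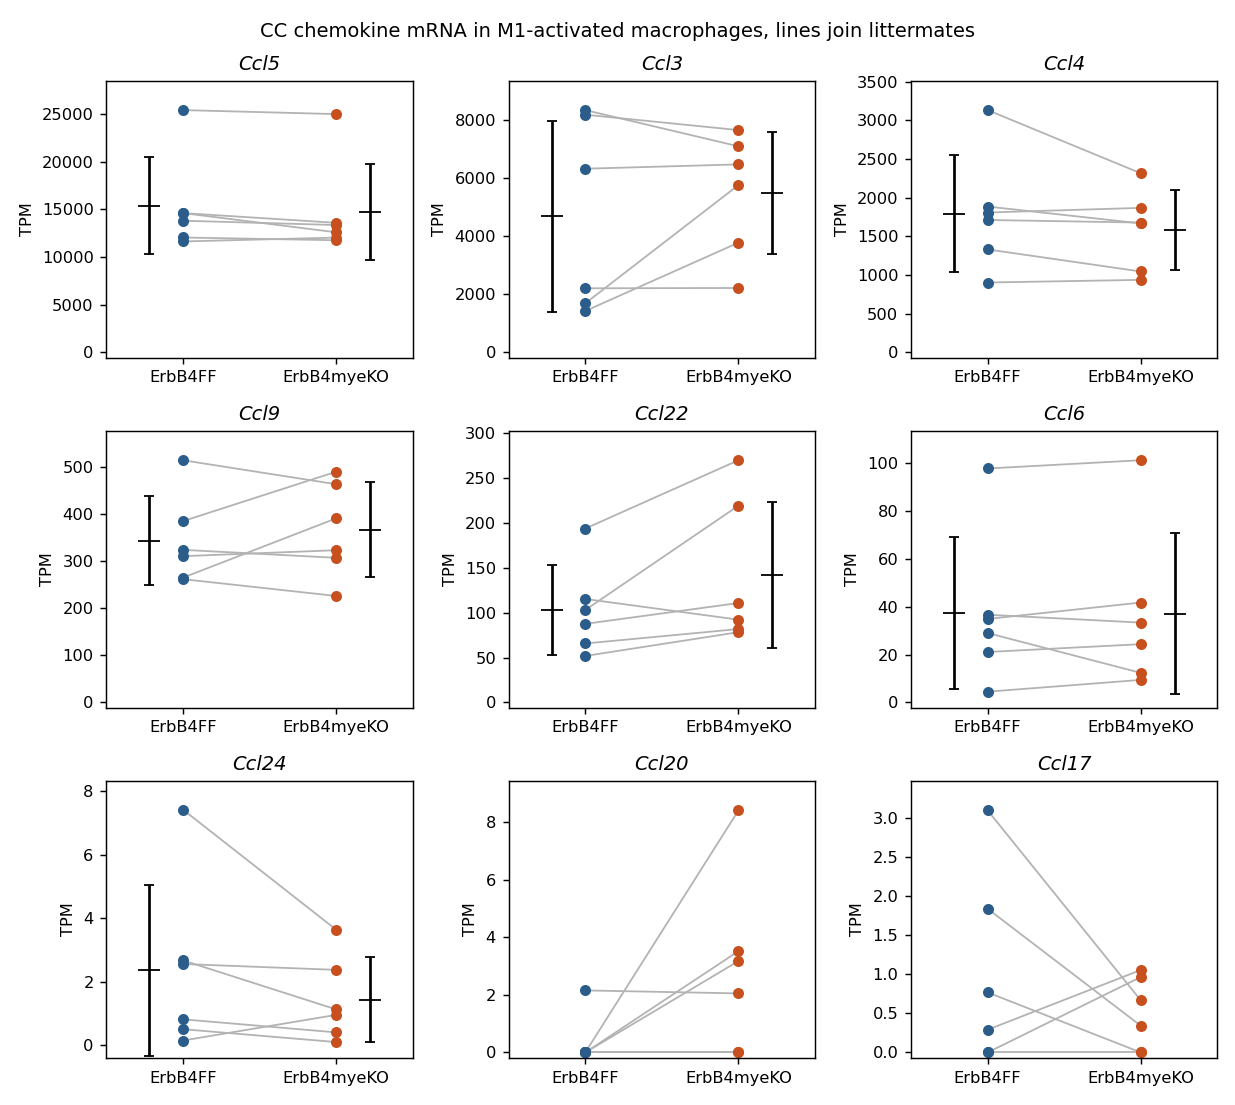
TPM of the 9 CC chemokine genes in the ErbB4FF and ErbB4myeKO cultures, each point 1 library, grey lines joining littermates, and black bars the mean and SD of 6 libraries (not drawn for Ccl20 and Ccl17, which are listed at 0 in several libraries). The genotypes overlap in every panel, and the scale runs from 25396 TPM for the highest library of Ccl5 to 3.10 TPM for that of Ccl17.

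The 9 genes together made up between 1.73% and 2.98% of all TPM of a library, and Ccl5 held the largest share in each. In mean level over the 12 libraries the order was Ccl5, Ccl3, Ccl4, Ccl9, Ccl22, Ccl6, Ccl24, Ccl20 and Ccl17, from 15022 TPM down to 0.752 TPM. The listed transcripts held 59.0% to 74.7% of all TPM of a library, so levels and ranks are those among listed transcripts alone. This share was highest in litter 5, at 71.4% in the ErbB4myeKO and 74.7% in the ErbB4FF culture. Among the listed genes Ccl5 took position 2 or 3 by TPM in every library. By mean TPM Ccl5 took position 2 of 22243 genes. Ccl3 was at 11, Ccl4 at 55, Ccl9 at 304, Ccl22 at 742 and Ccl6 at 1911. From Ccl5 to Ccl22 each gene was above the next in 12 of 12 libraries, and Ccl6 was above Ccl24 in 12 of 12. Ccl22 was above Ccl6 in 10 of 12 libraries. Ccl24 and Ccl20 (log2 difference 0.60 ± 1.52, SD over 6 litters) and Ccl20 and Ccl17 (0.21 ± 1.11) did not differ beyond their spread. As the order was set by the means of these same libraries, no p is given for its steps. At the lower end the values rested on few reads. By the relation between the deposited mean counts and TPM, 1 TPM stood for about 4.74 normalized estimated counts of Ccl20 and 3.07 of Ccl17, so the highest libraries of these genes held about 39.9 and 9.51 counts.

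Within this total the balance of Ccl5 and Ccl3 differed more between litters than between genotypes. Ccl5 held between 49.9% and 85.1% of the summed TPM of the 9 genes, Ccl3 between 7.39% and 34.6% and Ccl4 between 4.94% and 13.0%. Both cultures of litter 5 had a small share of Ccl3, 7.39% to 7.51%, and both of litters 1, 3 and 6 a large one. In litters 2 and 4 the littermates parted, as the Ccl3 share was small in the ErbB4FF culture and larger in the ErbB4myeKO culture. Across genes, each library of litter 2 was also closer to the litter 4 library of its own genotype than to its littermate (r = 0.961 for ErbB4myeKO and 0.967 for ErbB4FF). The libraries of litter 4 were closest to each other (r = 0.971).

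**Figure D2:**
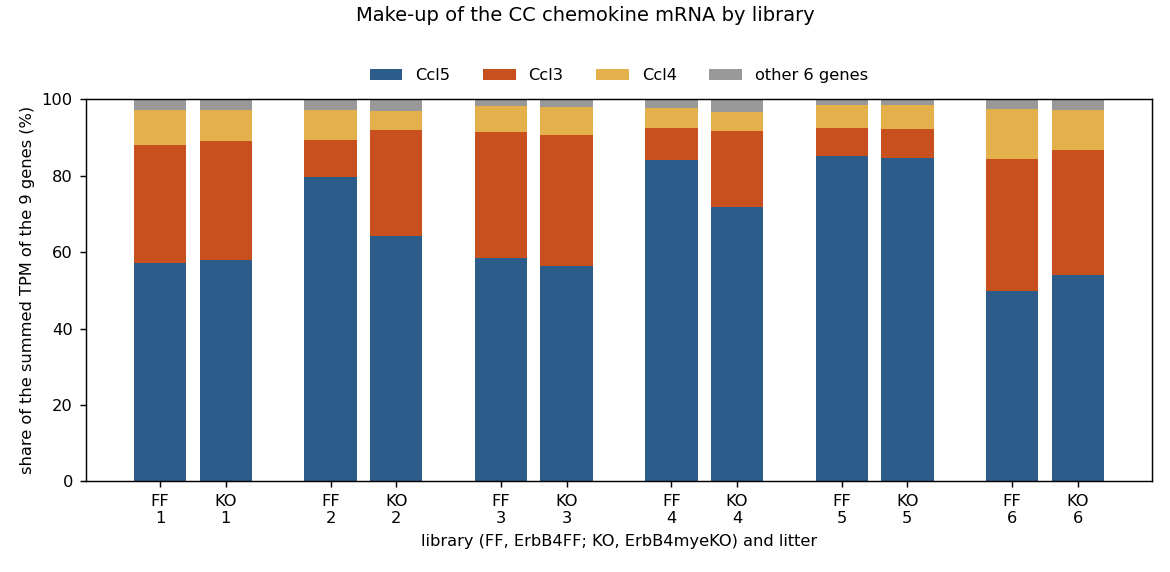
Share of the summed TPM of the 9 genes held by Ccl5, Ccl3, Ccl4 and the other 6 genes (percent, vertical axis) in each of the 12 libraries, with littermates side by side. Ccl5 takes 49.9% to 85.1%, and the Ccl3 share of littermates differs visibly in litters 2 and 4 alone.

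Ccl5 (ENSMUSG00000035042, chromosome 11 of GRCm38, 83525778 to 83530518, minus strand) was the member that varied least between littermates. In ErbB4myeKO cultures of litters 1 to 6 it was 12024, 13340, 12578, 13572, 24975 and 11745 TPM. In their ErbB4FF littermates it was 11618, 13794, 14594, 14593, 25396 and 12033 TPM. Both cultures of litter 5 stood far above the other 10, and within litters the genotypes lay close together. The means were 14706 ± 5081 and 15338 ± 5088 TPM (SD, n = 6 each), and the log2 ratio was -0.06 ± 0.09 (SD, n = 6 litters), lower in ErbB4myeKO in 5 of 6 litters (exact permutation p = 0.156). limma gave a standard error of 0.06 and an adjusted p of 0.75. The ratio was -0.07 without litter 5, the high pair, and -0.03 without litter 3.

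Ccl3 and Ccl4 are neighbours 13228 bp apart on chromosome 11 (Ccl3, ENSMUSG00000000982, 83647844 to 83649355, minus strand, and Ccl4, ENSMUSG00000018930, 83662584 to 83664683, plus strand). Ccl3, for MIP-1α, was 6477, 5765, 7659.8, 3779, 2215 and 7099.8 TPM in the ErbB4myeKO cultures of litters 1 to 6. It was 6328, 1686, 8190.1, 1420.6, 2204 and 8349 TPM in the ErbB4FF cultures. The 4 lowest libraries were the ErbB4FF cultures of litters 2 and 4 and both cultures of litter 5, and the ErbB4myeKO culture of litter 4 lay between these and the other 7. In litter 2 the ErbB4myeKO culture had 3.42-fold and in litter 4 2.66-fold the Ccl3 of its littermate, while in the other 4 litters the ratio lay between 0.85 and 1.02. On average the log2 ratio came to 0.48 ± 0.87 (SD, n = 6 litters), less than its own SD (exact permutation p = 0.406), with 0.29 as limma's standard error and 0.649 as its adjusted p. Without litter 2 the log2 fold change was 0.22, and without litter 4 it was 0.30.

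Ccl4, for MIP-1β, was measured at a lower level. Its values were 1666, 1044, 1677, 936, 1867 and 2314 TPM in ErbB4myeKO and 1884, 1329.7, 1710.6, 902, 1807 and 3132 TPM in ErbB4FF cultures of litters 1 to 6. It was lower in ErbB4myeKO in 4 of 6 litters, litter 2 among them, and litter 6 had the widest gap. The log2 ratio was -0.15 ± 0.21 (SD, n = 6 litters; exact permutation p = 0.219; limma standard error 0.08 and adjusted p = 0.639), and it was -0.09 without litter 6. The ratio of Ccl3 to Ccl4 TPM ran from 1.19 to 5.52 over the 12 libraries. In litter 2 the log2 ratios of these neighbours were 1.77 for Ccl3 and -0.35 for Ccl4.

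Differences between members in their response to genotype were tested for 5 pairs chosen for shared receptors or positions, and none passed. The log2 ratio of Ccl3 minus that of Ccl4 was 0.63 ± 0.90 (SD, n = 6 litters; exact permutation p = 0.125, adjusted over the 5 pairs 0.521). Ccl3 minus Ccl5 gave 0.55 ± 0.88 (exact permutation p = 0.312, adjusted 0.521) and Ccl4 minus Ccl5 gave -0.09 ± 0.25 (exact permutation p = 0.469, adjusted 0.586), the latter between -0.14 without litter 3 and -0.022 without litter 6, and -0.04 without litter 2. Without litter 2 Ccl3 minus Ccl4 was 0.33 and Ccl3 minus Ccl5 was 0.29, and without litter 4 Ccl3 minus Ccl5 was 0.35. For Ccl3 minus Ccl4 the litters ranged from -0.07 to 2.12, so these data show the responses of these neighbours neither to be alike nor to differ.

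**Figure D3:**
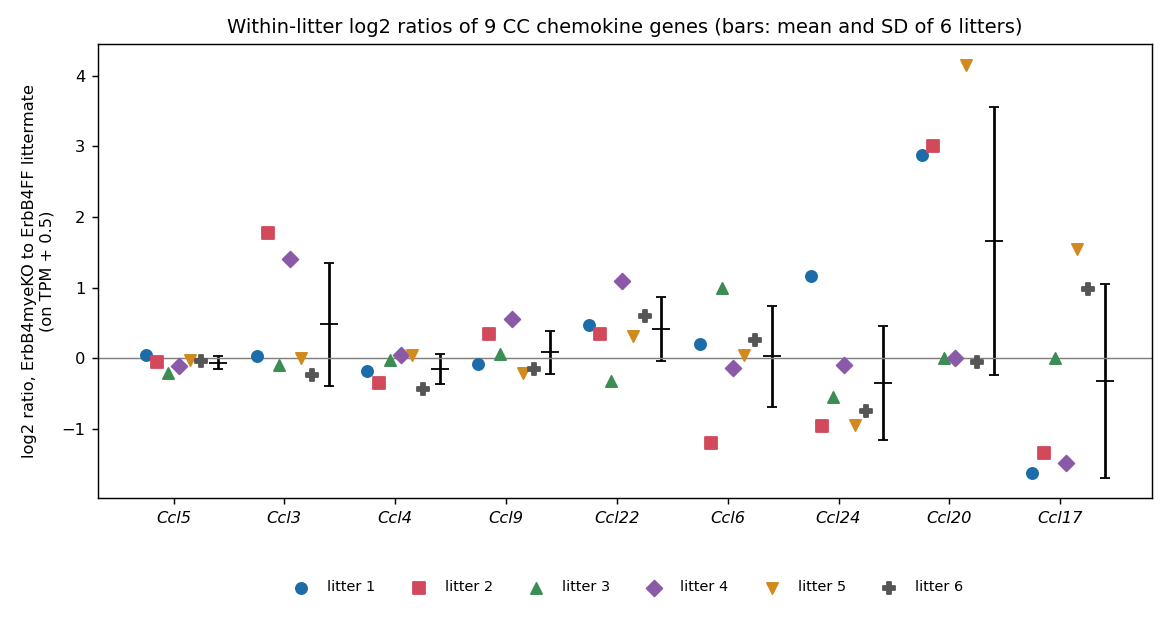
Log2 ratio of TPM + 0.5 of the ErbB4myeKO to the ErbB4FF littermate (vertical axis) for each of the 9 genes, each symbol 1 litter, and bars the mean and SD of 6 litters. Ccl5 lies between -0.21 and 0.05 in the 6 litters, Ccl3 departs from 0 in litters 2 and 4, and Ccl20 in litters 1, 2 and 5.

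Ccl9 and Ccl6, the CCR1 ligands between Ccl5 and Ccl3 on chromosome 11, were expressed at a lower level and showed no common direction. Ccl9 (ENSMUSG00000019122, 83572919 to 83578636, minus strand) was 308, 491, 324, 391, 226 and 464 TPM in the ErbB4myeKO and 325, 386, 311, 265, 262 and 515 TPM in the ErbB4FF cultures of litters 1 to 6. It was higher in ErbB4myeKO in 3 litters and lower in 3. The log2 ratio was 0.09 ± 0.30 (SD, n = 6 litters; exact permutation p = 0.562; limma adjusted p = 0.818), and without litter 4, which had the largest ratio, it was -0.0067.

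Ccl6 (ENSMUSG00000018927, 83587882 to 83593087, minus strand) differed widely between litters, 14.3-fold from the lowest to the highest on the scale of TPM + 0.5. It was 24.3, 12.3, 9.39, 33.4, 101.3 and 41.8 TPM in ErbB4myeKO and 21.1, 29.0, 4.46, 36.7, 97.8 and 34.9 TPM in ErbB4FF cultures of litters 1 to 6. Both cultures of litter 5 were the highest, as for Ccl5, and both of litter 3 the lowest. The log2 ratio was 0.03 ± 0.72 (SD, n = 6 litters; exact permutation p = 0.875; limma adjusted p = 0.977), and it turned to -0.17 without litter 3. The difference in log2 ratio between Ccl6 and Ccl9 was -0.06 ± 0.90 (exact permutation p = 0.875, also after adjustment). Ccl6 overlaps an antisense gene, E230016K23Rik, and the strand setting of the quantification is not given in the sources used here, so its reads and those of its partner may not be told apart.

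Ccl22 (ENSMUSG00000031779, chromosome 8, 94745590 to 94751699, plus strand), the CCR4 ligand also known as MDC, had the smallest p of the members. In the ErbB4myeKO cultures of litters 1 to 6 it was 269.95, 111, 92.2, 219, 81.7 and 78.2 TPM. In the ErbB4FF cultures it was 194, 87.5, 115, 103, 65.6 and 51.7 TPM. The ErbB4myeKO culture was the higher of the pair in every litter but litter 3, and the groups overlapped, as the litters themselves differed up to 3.57-fold. The log2 ratio was 0.41 ± 0.46 (SD, n = 6 litters), higher in 5 of 6 litters (exact permutation p = 0.0938). In limma the standard error was 0.16, the unadjusted p 0.0329 and the adjusted p 0.603. It was 0.56 without litter 3 (unadjusted p = 0.00288 in limma), and without any other litter it lay between 0.28 (litter 4) and 0.44 (litter 5), with the unadjusted p over 0.05, from 0.0543 without litter 5 to 0.084 without litter 4. With a covariate from Y-linked genes it was 0.0633, but this covariate carries little beyond litter, as littermates had the same Y-linked state (Ddx3y and Eif2s3y present in both cultures of litters 1 to 4 and at 0 in both of litters 5 and 6), so that value says nothing of sex. Without the block for litter the unadjusted p was 0.29.

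Ccl17 (ENSMUSG00000031780, chromosome 8, 94810453 to 94812036, plus strand), the other CCR4 ligand, lies 58753 bp from Ccl22 and was close to the limit of detection. It was below the 1 TPM filter and was listed at 0 in 4 of 12 libraries, the ErbB4myeKO cultures of litters 2 and 3 and the ErbB4FF cultures of litters 3 and 5. The other values ran from 0.341 to 1.06 TPM in ErbB4myeKO and from 0.291 to 3.10 TPM in ErbB4FF cultures. The ErbB4myeKO culture was the higher in 2 litters and the lower in 3, with log2 ratios of -1.63, -1.34, 0, -1.48, 1.55 and 0.98 in litters 1 to 6. On the TPM + 0.5 scale the log2 ratio was -0.32 ± 1.37 (SD, n = 6 litters; exact permutation p = 0.562), and Ccl17 minus Ccl22 was -0.73 ± 1.57 (exact permutation p = 0.281, adjusted over the 5 pairs 0.521; from -1.13 without litter 5 to -0.37 without litter 4, and -0.46 without litter 1). In a fit without the filter the adjusted p of limma was 0.846.

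Genes associated with dendritic cells were measured beside Ccl22, and they did not all follow it. The summed TPM of 10 dendritic cell markers was between 63.8 and 153 in ErbB4myeKO and between 43.1 and 113 in ErbB4FF cultures, and was higher in ErbB4myeKO in 5 of 6 litters, with litter 3 again the exception. Of the 10 markers 5 had a mean of at least 1 TPM, 2 of these had an unadjusted p under 0.05 and 0 an adjusted one, with a median log2 fold change of 0.44. Ccr7, the homing receptor of mature dendritic cells, is also in the set of M1 macrophage genes that the study used. It was 53.5 TPM in ErbB4myeKO and 41.7 TPM in ErbB4FF cultures on average, and its log2 ratio was 0.33 ± 0.43 (SD, n = 6 litters; exact permutation p = 0.0938). For Itgax, which encodes CD11c, the log2 ratio was 0.44 ± 0.59 (exact permutation p = 0.125), for Xcr1, the receptor of cross-presenting dendritic cells, 0.63 ± 0.66 (exact permutation p = 0.0938) and for Fscn1, an actin bundler of mature dendritic cells, 0.44 ± 0.48 (exact permutation p = 0.0312). Clec9a, which like Xcr1 marks cross-presenting dendritic cells, was at 0.10 ± 1.70 (exact permutation p = 0.844), with -3.14 in litter 2 and values above 0 in the other 5 litters. Of these 5 genes Itgax and Ccr7 had the direction of Ccl22 in each litter, whereas Xcr1, Fscn1 and Clec9a were above 0 in litter 3. Other defining genes were at or near 0, as Flt3, Cd209a and Siglech had a mean under 0.1 TPM, Zbtb46 was 0.124 and 0.208 TPM and lower in ErbB4myeKO in 4 of 6 litters, and Dpp4 was 0.236 and 0.232 TPM, also lower in 4. The part of such cells in the Ccl22 difference was not tested, and in bulk RNA a change in the number of cells of a type cannot be told apart from a change in RNA per cell.

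**Figure D4:**
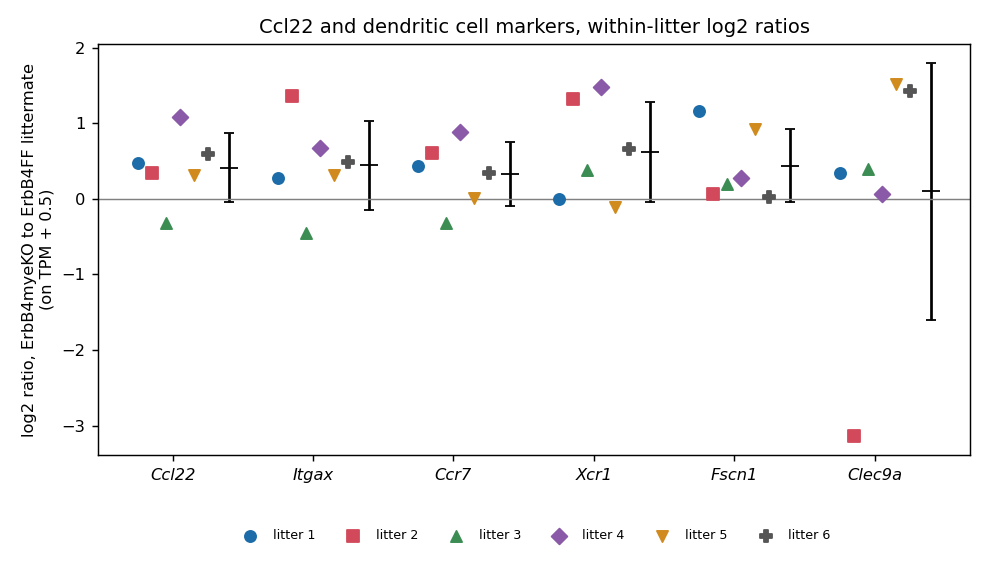
Log2 ratio of TPM + 0.5 of the ErbB4myeKO to the ErbB4FF littermate (vertical axis) for Ccl22 and the 5 dendritic cell markers with a mean of at least 1 TPM, each symbol 1 litter, and bars the mean and SD of 6 litters. Ccl22, Itgax and Ccr7 are below 0 in litter 3 and above 0 in the other 5 litters, while Xcr1, Fscn1 and Clec9a are above 0 in litter 3 and Clec9a is at -3.14 in litter 2.

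Ccl20 (ENSMUSG00000026166, chromosome 1, 83116766 to 83119167, plus strand), the CCR6 ligand, had the largest ratio and the fewest libraries behind it. In the ErbB4myeKO cultures it was 3.18, 3.52, 8.40 and 2.05 TPM in litters 1, 2, 5 and 6 and listed at 0 in litters 3 and 4. Among the ErbB4FF cultures only that of litter 6 had a value, 2.15 TPM, and those of litters 1 to 5 were at 0. It was thus higher in ErbB4myeKO in 3 litters, lower in 1 and at 0 in both cultures of 2. The log2 ratio of TPM + 0.5 was 1.66 ± 1.90 (SD, n = 6 litters; exact permutation p = 0.25), with a standard error of 0.66, an unadjusted p of 0.037 and an adjusted p of 0.603 in limma, which it entered only through its level in the ErbB4myeKO cultures. Its size follows the number added before the logarithm, as it was 2.76 with 0.1 and 1.24 with 1, and it was 1.17 without litter 5. The unadjusted p in limma was over 0.05 without litter 1 (0.0985), litter 2 (0.1) or litter 5 (0.106).

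The Ccl20 transcript in the table, ENSMUST00000113437, is 1 of several annotated for the gene, and 96.2% of its 31-mers also occur in the others. ENSMUST00000027351 and ENSMUST00000186832 differ from it at the start of exon 2, where the listed transcript keeps 3 further coding bases, and neither is in the table. Their junctions of exon 1 and exon 2 are shown because reads over them separate the listed form from these others, with 30 bases to each side (chr1:83116873-83116902 joined to the bases that end at chr1:83117828, plus strand, GRCm38) and the additional bases in capitals.
ENSMUST00000113437: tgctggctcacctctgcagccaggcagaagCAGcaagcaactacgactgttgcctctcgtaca
ENSMUST00000027351: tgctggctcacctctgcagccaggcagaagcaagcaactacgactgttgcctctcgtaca
The Ccl20 values above are therefore those of 1 form, and a value of 0 does not show that the gene was silent. For comparison, the listed transcripts of Ccl3, Ccl4 and Ccl17 shared 0% of their 31-mers with another transcript, that of Ccl22 11.02%, that of Ccl5 42.2% and that of Ccl6 55.7%. Ccl9 shared 3.80% and Ccl6 1.28% of its 31-mers with other genes.

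Ccl24 (ENSMUSG00000004814, chromosome 5, 135569937 to 135573049, minus strand), the CCR3 ligand eotaxin-2, was low and differed up to 7.37-fold between litters on the scale of TPM + 0.5. It was 0.958, 1.13, 0.406, 2.38, 3.64 and 0.101 TPM in ErbB4myeKO and 0.148, 2.68, 0.818, 2.56, 7.43 and 0.506 TPM in ErbB4FF cultures of litters 1 to 6. Both cultures of litter 5 were again the highest of their groups. It was lower in ErbB4myeKO in every litter but litter 1. The log2 ratio was -0.35 ± 0.81 (SD, n = 6 litters; exact permutation p = 0.344; limma adjusted p = 0.73), and with a litter left out it lay between -0.65 without litter 1 (unadjusted p = 0.0177 in limma) and -0.23 without litter 2 (unadjusted p = 0.531) or litter 5 (unadjusted p = 0.543).

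The bases upstream of the first exon are shown for Ccl22 and Ccl17, which share a receptor and a locus, for Ccl20, whose mean ratio was the largest in size although its exact permutation p was 0.25, and for Ccl3 as 1 of the more abundant genes. RefSeq promoter sequences (GRCm38.p6, from 250 bases before to 50 after the start) were at hand for 6 of the 9 genes, Ccl3, Ccl6, Ccl9, Ccl17, Ccl20 and Ccl22. Capitals mark matches to a κB motif (GGGA and CC with any 4 bases between them, both strands), a GAS element (TTCNNNGAA, palindromic) or a STAT6-type element with wider spacing (TTC and GAA 4 bases apart, palindromic), and each sequence reads 5′ to 3′ on the strand of the gene.
Ccl22, chr8:94745434-94745589, plus strand: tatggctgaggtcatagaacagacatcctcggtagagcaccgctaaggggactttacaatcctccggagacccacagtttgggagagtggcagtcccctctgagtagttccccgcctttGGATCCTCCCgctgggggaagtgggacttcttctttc
Ccl20, chr1:83116516-83116765, plus strand: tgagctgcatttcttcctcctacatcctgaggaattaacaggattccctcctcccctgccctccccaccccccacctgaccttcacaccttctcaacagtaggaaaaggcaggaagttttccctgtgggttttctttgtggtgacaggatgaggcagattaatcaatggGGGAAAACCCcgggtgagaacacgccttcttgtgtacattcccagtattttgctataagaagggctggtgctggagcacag
Ccl17, chr8:94810203-94810452, plus strand: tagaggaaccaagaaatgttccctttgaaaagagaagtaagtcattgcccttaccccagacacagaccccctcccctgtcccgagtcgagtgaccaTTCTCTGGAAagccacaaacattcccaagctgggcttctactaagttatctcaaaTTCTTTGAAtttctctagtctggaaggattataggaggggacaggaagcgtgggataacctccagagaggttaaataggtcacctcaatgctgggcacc
Ccl3, chr11:83649379-83649628, minus strand: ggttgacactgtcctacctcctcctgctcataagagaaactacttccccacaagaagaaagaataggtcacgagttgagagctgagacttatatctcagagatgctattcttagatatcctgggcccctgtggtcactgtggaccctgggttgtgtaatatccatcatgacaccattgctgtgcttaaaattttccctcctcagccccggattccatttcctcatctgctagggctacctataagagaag
For Ccl22 the 156 bases before the first exon of GENCODE M21 are given, as the RefSeq start lies inside that exon. The κB letters stand at -131 to -122 from the RefSeq start of Ccl22, on the minus strand, and at -81 to -72 of Ccl20, on the plus strand. Ccl17 holds the STAT6-type letters at -154 to -145 and the GAS letters at -99 to -91. In the Ccl3 window no searched motif was found. Ccl9, not shown, has TATAAA (plus strand) at -92 and an AP-1 motif (TGANTCA) at -53, and no member's window holds the interferon-stimulated response motif (GAAA repeated after any 2 bases). Among all 32851 RefSeq promoters of this length the κB letters occurred in 20.7%, the GAS letters in 8.30%, the STAT6-type letters in 6.95%, TATAAA in 8.32%, the AP-1 motif in 7.81% and the response motif in 3.44%. A match is a description of the sequence and not a measured binding site.

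The receptors of these ligands were partly expressed by the same BM-Mɸs. Of 9 receptors and decoy receptors 4 passed the filter and 0 had an unadjusted p under 0.05 (1 without litter 6), with a median log2 fold change of -0.23. Ccr1, the receptor of CCL6 and CCL9, was 5.95 ± 3.0 TPM in ErbB4myeKO and 7.14 ± 3.53 TPM in ErbB4FF cultures (SD, n = 6 each; log2 ratio -0.29 ± 0.42, exact permutation p = 0.156). The atypical receptor gene Ccrl2 was the most abundant of the list, 646 ± 237 and 614 ± 237 TPM, with a log2 ratio of 0.07 ± 0.26. Ccr3, the CCL24 receptor, was 6.27 ± 2.47 and 8.43 ± 6.11 TPM, with a log2 ratio of -0.29 ± 0.54. By contrast Ccr4, for CCL17 and CCL22, was listed at 0 in 8 of 12 libraries with a highest value of 0.342 TPM, and Ccr6, for CCL20, was listed at 0 in all 12.

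Of 12 other CC chemokine genes 5 passed the filter, 2 of these had an unadjusted p under 0.05, both lower in ErbB4myeKO BM-Mɸs, and 0 an adjusted one, with a median log2 fold change of -0.36. That median is the value of Ccl25. It reached the filter only through the ErbB4FF cultures (mean 1.16 TPM, and 0.920 TPM in ErbB4myeKO), so the filter has a part in its direction. The count of 2 fell to 1 without litter 1, 2, 3 or 4 and to 0 without the block, and was 3 without litter 6. The lowest were Ccl8, at -0.76 ± 0.91 (exact permutation p = 0.0938), and Ccl12, at -0.68 ± 0.68 and lower in 6 of 6 litters (exact permutation p = 0.0312), both monocyte attractants of the neighbouring MCP group on chromosome 11. Ccl12 was -2.02 in litter 2 and between -0.60 and -0.18 in the other litters. The highest were Ccl2, the main monocyte attractant of that group, at -0.03 ± 0.29, and Ccl7 at -0.34 ± 0.45 (SD, n = 6 litters each). All 5 lay below 0, and 5 of the 8 tested members lay above it. Of the 8780 genes tested, 4372 lay above 0 and 4408 below. Ccl25 among the 5 and Ccl20 among the members passed the filter only through the group where each is the higher. Ccl6 and Ccl9, counted above 0, turned below it with a litter left out. Whether these groups of genes differ was not tested.

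All 22 genes of a list for LPS and interferon signalling to chemokine genes passed the filter, with a median log2 fold change of -0.04 and 0 genes with an adjusted p under 0.05. The interferon-γ receptor chain gene Ifngr2 alone had an unadjusted p under 0.05 (log2 ratio -0.20 ± 0.10, lower in 6 of 6 litters, exact permutation p = 0.0312), and the count was 2 without litter 1, 2 or 5 and 0 without the block. The lowest was Ly96, for the TLR4 partner MD-2, at -0.45 ± 0.65. The highest were Traf6 at 0.18 ± 0.16 and Cd14, for the LPS co-receptor, at 0.16 ± 0.55 (SD, n = 6 litters each). Litter 2 weighed on these means, with -1.73 for Ly96 and 0.89 for Cd14, and Cd14 was -0.62 in litter 3. Of 12 genes of the IL-4 and STAT6 axis, which acts on Ccl17, Ccl22 and Ccl24 in other settings, 8 passed and 2 had an unadjusted p under 0.05, again 0 an adjusted one, with a median of -0.08. The count of 2 fell to 1 without litter 2 or 4 and to 0 without the block, and was 3 without litter 3. These genes were the IL-4 receptor gene Il4ra at -0.59 ± 0.62 (exact permutation p = 0.0625) and the kinase gene Jak3 at -0.51 ± 0.42, lower in 6 of 6 litters (exact permutation p = 0.0312). The highest were the histone demethylase gene Kdm6b at 0.29 ± 0.53 and Chil3 at 0.08 ± 0.81. Retnla, a marker of IL-4 exposure, was listed at 0 in all 12 libraries.

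The genes whose levels most resembled those of each member over the 12 libraries are given as a description, since littermates share a litter and the libraries are not independent. For Ccl3 they were Sephs2 (Pearson r = 0.96), the neutrophil attractant Cxcl3 (r = 0.956) and Macc1 (r = 0.949), and r was at least 0.938 with any litter left out. For Ccl22 they were Cd80, the T-cell costimulator (r = 0.938), Ccr7 (r = 0.93) and Syngr2 (r = 0.892), with r at least 0.766 with a litter left out. Ccl5 was closest to Pnp (r = 0.97), Uqcrfs1 (r = 0.965) and Faap20 (r = 0.957), and these rested on litter 5, as r without it was 0.775, 0.591 and 0.375.
Ccl4 was closest to Vmp1 (r = 0.877), Dolk (r = 0.857) and Arhgap27 (r = 0.85), and Ccl9 to Eif1a (r = 0.849), Zfp558 (r = 0.831) and Tes (r = 0.813). With a litter left out r fell as low as 0.695 for Ccl4 and Arhgap27 and 0.681 for Ccl9 and Tes. The genes most like Ccl6 included Zfp637 (r = 0.969) and Tusc2 (r = 0.963). For Ccl24 they were Manbal (r = 0.935), Ctdnep1 (r = 0.934) and Kctd6 (r = 0.928), and for Ccl20, with 7 libraries at 0, Abcf2 (r = 0.892), Nudcd1 (r = 0.858) and Med25 (r = 0.852). No member was among the 3 genes most like another. The neighbours Ccl3 and Ccl4 had r = 0.501 (0.319 to 0.676 with a litter left out), which placed Ccl4 at position 1138 of 8779 genes by likeness to Ccl3. Ccl24 ran with Ccl5 (r = 0.82) and against Ccl3 (r = -0.82).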

How the data were processed

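The authors sequenced stranded poly(A) libraries as single reads of 75 bases, pseudoaligned them with kallisto and deposited TPM for the principal isoforms of the APPRIS annotation. Versions, the transcriptome release and the strand setting are not given in the sources used here, and the submitters' processing notes name mm10. The table also holds the authors' sleuth results, which were not used, and the deposited mean natural log of each transcript's estimated counts, used only to relate TPM to counts (5.97 per TPM and kb over 6619 transcripts), as depth per library is not given.

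Of 29213 lines, 405 repeat a transcript and were counted once. For each gene the TPM of its transcripts were summed, and log2(TPM + 0.5) of the 8780 genes whose mean reached 1 TPM entered limma 3.58.1 in R 4.3.3 (trended eBayes). Litter, which the submitters also label as batch, was a block. Python 3.11.15 was used for permutations. Genotype and litter came from the labels, which state that litters are pairs. Littermates' deviations from their group means correlated at 0.273 to 0.774. The study also adjusted for sex, which is not on the labels, and a covariate from 4 Y-linked genes was an alternative, which cannot adjust for sex here, as littermates had the same Y-linked state. Other alternatives were no block, a pseudocount of 0.1 or 1, no filter or at least 5 TPM, median-ratio scaling, no trend, the highest transcript alone and each litter left out. A run on simulated data served to test the script.

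The members and lists were chosen with earlier results of these data known. Named were all 9 members, the genes of the other lists with the 2 highest and 2 lowest log2 fold changes, Ccr1, Ccr4 and Ccr6, and the 3 genes most like each member, of which some results are not reported here. Other genes were named after their values were seen. Positions are from GENCODE M21 (GRCm38).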

Additional observations from a re-analysis of the deposited data

Results flagged for a closer look

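In 3 of 27 groups of 6 values that were examined, 1 library stood apart, judged by its gap to the nearest other library as a share of the group's range and read against Dixon's critical value for 6 samples. That value is meant for independent values of a normal distribution. Littermates are not independent and some groups hold ties at 0, so the count of flags was not set against chance. Ccl5 was far above the other ErbB4myeKO cultures in litter 5 (24975 TPM, gap 0.808) and far above the other ErbB4FF cultures in the same litter (25396 TPM, gap 0.708). Both of these flags come from the same pair of littermates. Ccl20 was above 0 in a single ErbB4FF culture, that of litter 6 (2.15 TPM, gap 1.0). The log2 fold change of Ccl5 was -0.07 without litter 5.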

How the results depend on the processing

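No member passed an adjusted p of 0.05 in limma under any of the 15 alternatives, and over all genes 0 passed except 1 without litter 3, Igkv1-88, named after its value was seen. Without the block, 75 genes had an unadjusted p under 0.05 in place of 721, and 1 member in place of 2. With a replicate block and the Y-linked covariate, or with a filter of at least 5 TPM, 1 member had such a p, and with a litter left out 0 to 2 members and 413 to 864 genes. Counts of genes with such a p in the other lists ranged over the alternatives from 0 to 3 for other CC chemokines and the IL-4 and STAT6 axis, 0 to 2 for LPS and interferon signalling and 0 to 1 for receptors. Ccl6 turned to -0.01, -0.17 and -0.02 without litters 1, 3 and 6 (range -0.17 to 0.27), and Ccl9 to -0.0067 without litter 4 (range -0.0067 to 0.15). Ccl6 minus Ccl9 turned to 0.24 without litter 2 and 0.07 without litter 4 (range -0.26 to 0.24). The cause was not tested. Of the other 7 members, Ccl3, Ccl4, Ccl5, Ccl20, Ccl22 and Ccl24 kept their direction under every alternative that gave a value. Leaving out the block or the trend or changing the filter cannot change a log2 fold change, so only the remaining alternatives bear on direction. Ccl17 had 1 alternative, no filter, which repeats its value, so its direction was not tested in this way. Ccl20, Ccl17 and Ccl24 are limited by depth, with at most 39.9 counts in a library for Ccl20 and 9.51 for Ccl17.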
